A study of Homo sapiens and Mus musculus with 16 samples.

Results

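Small nucleolar RNAs (snoRNAs) were examined in the mRNA libraries of SK-HEP-1 cells. Every row of the mRNA table whose gene symbol begins with SNORA or SNORD was taken, and rows of snoRNA host genes (SNHG) were left out. This gave 364 snoRNAs of 22314 rows, of which 258 were box C/D snoRNAs (SNORD) and 106 were box H/ACA snoRNAs (SNORA). The choice rested on the symbols and on no measured value.

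SK-HEP-1, labelled as a human liver cell line, was exposed for 2 or 4 h to 0.5 mg/ml of an ethanol extract of the fruiting body of the fungus Antrodia cinnamomea (AcFBE), or to DMSO as the control. The libraries were named 2U and 4U for the DMSO controls and 2T and 4T for the treated cells. Polyadenylated RNA was selected and its cDNA was amplified by PCR before sequencing. Small RNA libraries of the same cells, doses and times were sequenced in 2 batches and serve below for 1 miRNA. Each condition had 1 mRNA library, so no value below has an error between replicates, and no difference between mRNA libraries was tested. Levels are FPKM (fragments per kilobase of exon and 1000000 mapped fragments), and a snoRNA was called detected where its FPKM was above 0. A value of 0 in this table says only that the row is listed at 0.

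SnoRNAs are short non-coding RNAs of the nucleolus that guide the chemical modification of ribosomal RNA. Box C/D snoRNAs carry a C box near the 5′ end and a D box near the 3′ end, bind fibrillarin, NOP56, NOP58 and SNU13, and direct 2′-O-methylation of ribose. Box H/ACA snoRNAs fold into hairpins followed by the H and ACA boxes, bind dyskerin, NHP2, NOP10 and GAR1, and direct the conversion of uridine to pseudouridine. Most human snoRNAs are cut from the introns of host genes, many of which encode ribosomal proteins or translation factors. The mature RNAs carry no poly(A) tail.

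The members with the highest mean FPKM over the libraries, and the only members detected in all 4 libraries, are shown here because most of the values turn on them. Sequences were read from GRCh37 at the positions of the GENCODE annotation, 5′ to 3′ on the strand of the gene, with the conserved boxes in capitals.
SNORA10 (chr16:2012335-2012467, minus strand): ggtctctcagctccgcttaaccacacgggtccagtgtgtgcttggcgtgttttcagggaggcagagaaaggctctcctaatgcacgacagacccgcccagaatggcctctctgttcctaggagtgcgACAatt
SNORA70 (chrX:153628622-153628756, plus strand): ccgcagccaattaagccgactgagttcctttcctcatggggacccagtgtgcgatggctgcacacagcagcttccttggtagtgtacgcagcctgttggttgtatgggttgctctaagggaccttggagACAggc
SNORD86 (chr20:2636743-2636828, plus strand): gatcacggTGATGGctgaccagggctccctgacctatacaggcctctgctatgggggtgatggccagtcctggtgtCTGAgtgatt
SNORD104 (chr17:62223443-62223512, plus strand): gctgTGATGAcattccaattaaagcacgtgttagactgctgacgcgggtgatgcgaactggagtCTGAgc

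Capitals mark the ACA box of SNORA10 and SNORA70 and the C and D boxes of SNORD86 and SNORD104. The ACA box was searched as ACA in the last 10 bases and was found in 79 of 85 box H/ACA sequences (92.9%). The C box was searched as TGATGN in the first 20 bases and the D box as CTGA in the last 20 bases, both on the strand of the gene. Both were found in 180 of 200 box C/D sequences (90.0%), and in all 8 sequences of detected box C/D members. SNORA10 lies in RPS2 (ribosomal protein uS5), SNORA70 in RPL10 (ribosomal protein uL16), SNORD86 in NOP56, which encodes a core protein of box C/D particles, and SNORD104 in the non-coding host gene SNHG25.

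The cells were checked against marker genes before the snoRNAs were described. Of 8 hepatocyte markers, 6 were listed at 0 in all 4 libraries, among them ALB (albumin) and APOB (apolipoprotein B). SERPINA1 (alpha-1 antitrypsin) ran from 8.59 to 18.7 FPKM, and AFP (alpha-fetoprotein) did not exceed 0.621 FPKM. All 5 endothelial markers, including PECAM1 and VWF, were also listed at 0. Of the 3 mesenchymal markers, VIM (vimentin) ran from 6465 to 13625 FPKM and FN1 (fibronectin) from 4.92 to 14.5 FPKM, while COL1A1 (collagen) was listed at 0 in 3 libraries and at 0.271 FPKM in 4T. Most of the defining markers of hepatocytes were therefore listed at 0.

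Few snoRNAs were detected. Of 364 members, 21 (5.77%) were above 0 in at least 1 library, against 51.8% of all rows. At 2 h, 13 members were detected in the control (3.57%, against 47.9% of all rows) and 3 in the treated library (0.824%, against 37.9%). At 4 h, 9 were detected in the control (2.47%, against 42.8%) and 10 in the treated library (2.75%, against 43.8%). Each library therefore listed a far smaller share of the snoRNAs than of all rows, and 2T had the lowest share of both. Of the 8454 rows above 0 in 2T, 8448 were also above 0 in 2U. The paper counts more genes in 2T than in 2U, so the order of the 2 h libraries holds for the values used here only. The other 343 snoRNAs were at 0 in all 4 libraries. With no read counts in the table, the level below which a snoRNA goes unlisted is not known, so these snoRNAs were not detectable here and cannot be called absent.

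Other short non-coding RNAs were seldom listed above 0 either. Of 68 rows of small Cajal body, small nuclear, Y, vault and related RNAs, 4 (5.88%) were above 0 in any library. Of 909 rows of miRNA hairpin genes, 17 (1.87%) were. The share of snoRNAs thus lay near that of the former rows and above that of the hairpins. One of the 4 rows, RNU86, had 22.2 FPKM in 4U and 0 elsewhere, and RefSeq gives it as an older name of SNORD139, which is a box C/D snoRNA that the choice by symbol did not take.

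**Figure D1:**
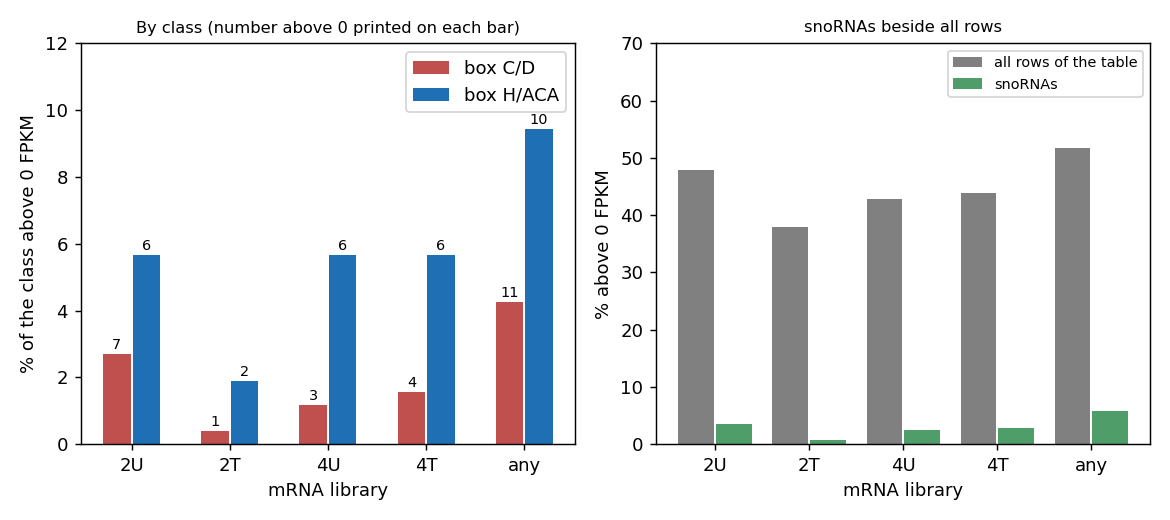
Share of rows above 0 FPKM in each mRNA library and in any of the 4 (% of rows), for box C/D and box H/ACA snoRNAs on the left, with the number above 0 on each bar, and for all snoRNAs beside all rows of the table on the right. Box H/ACA stood above box C/D in each library, and the bars for all snoRNAs on the right never passed 5.77% while the bars for all rows lay between 37.9% and 51.8%.

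A larger share of the box H/ACA than of the box C/D snoRNAs was detected. In any library, 10 of 106 box H/ACA members (9.43%) and 11 of 258 box C/D members (4.26%) were above 0. The order was the same in each library. In 2U, 6 box H/ACA members (5.66%) and 7 box C/D members (2.71%) were detected, and in 2T 2 (1.89%) and 1 (0.388%). In 4U the numbers were 6 (5.66%) and 3 (1.16%), and in 4T 6 (5.66%) and 4 (1.55%). The number of box H/ACA members was thus 6 in 3 of the libraries, while that of box C/D members varied from 1 to 7. Part of the gap between the classes lay in tandem families. SNORD113, SNORD114, SNORD115 and SNORD116, which stand in repeated arrays at imprinted loci and are known for expression in brain, made up 110 of the box C/D rows, and 0 of them were detected. Without them, 11 of 148 box C/D members (7.43%) were detected.

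The classes also differ in length. In RefSeq the detected box C/D members had a median of 77.0 nt (62 to 100 nt) and those at 0 a median of 81.0 nt (48 to 237 nt). The detected box H/ACA members had a median of 133.5 nt (130 to 149 nt) and those at 0 a median of 134.0 nt (121 to 250 nt). Within each class, then, detected and undetected snoRNAs were of like length. The part of length in the difference between the classes was not tested.

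Most detected snoRNAs appeared in a single library. Of the 21, 12 were above 0 in 1 library, 6 in 2, 1 in 3 and 2 in all 4 (0.549% of the members, against 34.4% of all rows). In 2U alone 5 were found, namely SNORA57, SNORD16, SNORD36A, SNORD83B and SNORD96A. Another 5 were found in 4U alone, namely SNORA61, SNORA67, SNORD43, SNORD46 and SNORD49A. SNORA24 and SNORD80 were found in 4T alone, and 0 members in 2T alone. The 3 box C/D members of 4U included none of the 7 of 2U, although both libraries came from DMSO-treated cells.

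**Figure D2:**
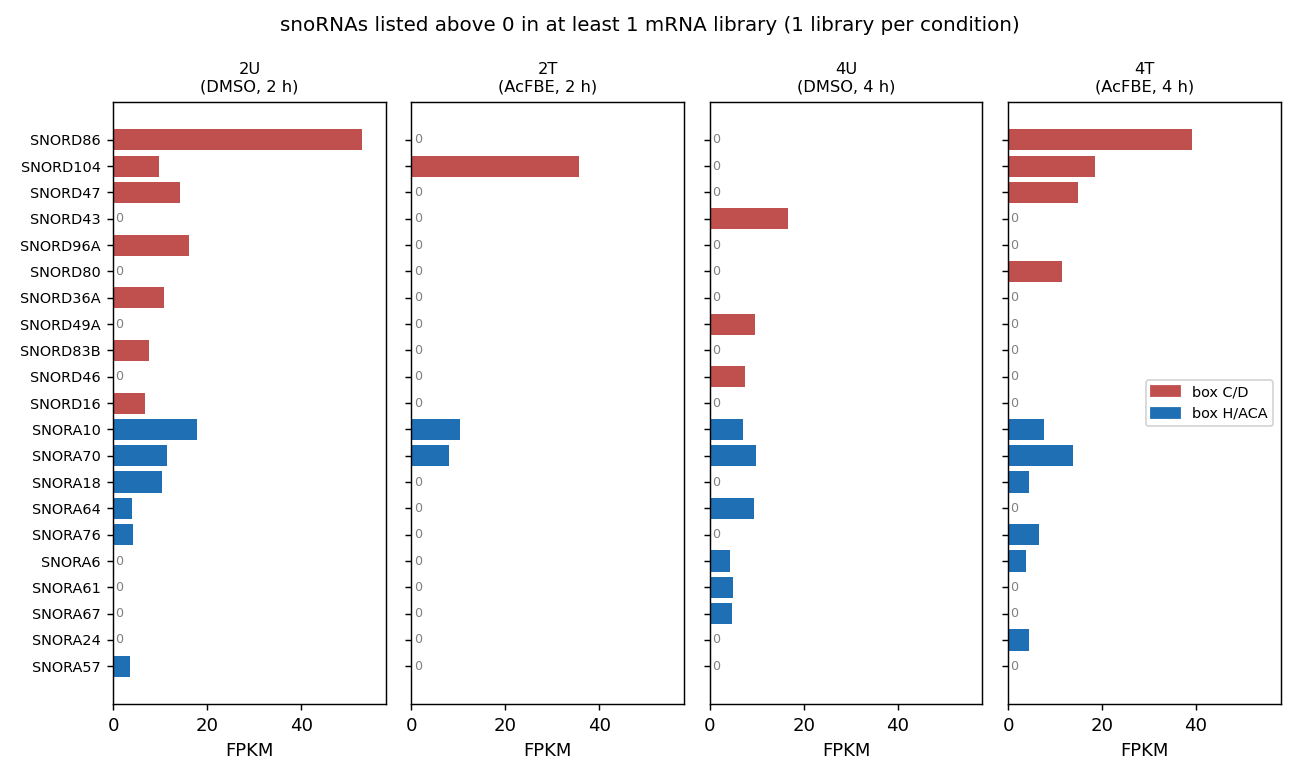
FPKM (x axis) of the 21 snoRNAs above 0 in at least 1 mRNA library, with 1 panel per library, red bars for box C/D, blue bars for box H/ACA and a grey 0 where a row is listed at 0. SNORD86 has the longest bars, at 53.0 FPKM in 2U and 39.1 FPKM in 4T, with 0 in 2T and 4U, and only SNORA10 and SNORA70 have a bar in every panel.

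Among box H/ACA members, SNORA10 and SNORA70 were detected throughout. SNORA10 had 17.9 FPKM in the control and 10.4 FPKM in the treated library at 2 h, and 7.18 and 7.63 FPKM at 4 h. It was highest in 2U, and the 2 libraries of 4 h lay close together. SNORA70, a guide for the small-subunit rRNA, had 11.4 and 7.93 FPKM at 2 h and 9.79 and 13.7 FPKM at 4 h, control first. Its values spanned a smaller range, with the lowest and the highest both in treated libraries.

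SNORA64, the other snoRNA of RPS2, had 4.10 FPKM in 2U, 9.42 FPKM in 4U and 0 in both treated libraries. SNORA18, from TAF1D, had 10.5 FPKM in 2U, 4.49 FPKM in 4T and 0 in 2T and 4U. SNORA76 had 4.14 FPKM in 2U and 6.57 FPKM in 4T. SNORA64 was thus seen in the control libraries only, and SNORA18 and SNORA76 in the control at 2 h and the treated library at 4 h. SNORA6, from RPSA (ribosomal protein uS2), had 4.21 FPKM in 4U and 3.86 FPKM in 4T. The 4 remaining box H/ACA members, each in 1 library, ran from 3.57 FPKM (SNORA57 in 2U) to 5.0 FPKM (SNORA61 in 4U).

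Among box C/D members, SNORD86 and SNORD104 had the highest means, 23.0 and 16 FPKM. SNORD86 had 53.0 FPKM in 2U and 39.1 FPKM in 4T, the highest values of any snoRNA in those libraries, and was listed at 0 in 2T and 4U. SNORD104 had 9.66 FPKM in the control and 35.7 FPKM in the treated library at 2 h, and 0 and 18.5 FPKM at 4 h. It was the only box C/D member of 2T and the only member of either class that was higher in 2T than in 2U. SNORD47, from the non-coding host gene GAS5, had 14.3 FPKM in 2U and 14.9 FPKM in 4T and was at 0 in 2T and 4U. SNORD86 and SNORD47 thus shared the pattern of SNORA18 and SNORA76, with a value in 2U and in 4T and none in the other libraries. SNORD43, from RPL3 (ribosomal protein uL3), had 16.7 FPKM, in 4U alone. SNORD96A, from GNB2L1 (now RACK1, a ribosomal scaffold protein), had 16.2 FPKM, in 2U alone, and SNORD80, also from GAS5, 11.6 FPKM, in 4T alone. The 5 remaining box C/D members of 1 library ran from 6.73 FPKM (SNORD16) to 10.8 FPKM (SNORD36A).

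The FPKM of such short RNAs can stand on few fragments. If the reads had 35 bases, as is stated for SOLiD sequences in a passage that may concern the small RNA libraries only, a read could start at only 46 positions in SNORD104 and 99 in SNORA10. RefSeq lengths were used for this, which for SNORD104 is 80 nt beside the 70 nt of the GENCODE sequence above. Multiplying FPKM by the number of start positions (length minus 34) and dividing by 1000 gave FPM (fragments per 1000000 mapped fragments). In 2U this quantity was the same, 0.410 FPM, for SNORA57, SNORA64, SNORA76 and SNORD36A, although their FPKM ran from 3.57 to 10.8. SNORD16, SNORD83B and SNORD104 shared 0.444, and SNORD47 and SNORD96A shared 0.615, which was 1.5 times the lowest value. Of 162 pairs of members detected in the same library, 11 agreed within 0.1% on this scale, more than with any other number of bases from 0 to 47 taken off the length, where at most 7 did. Members that share a value form several pairs, so these 11 are not independent of each other. The pairs that agreed lay in 2U, apart from SNORA18 and SNORA24 in 4T, and none lay in 2T or 4U. The scale therefore rests mainly on 2U, and it was compared with the others on these same values. How the authors set the length in FPKM was not given in the sources used here.

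**Figure D3:**
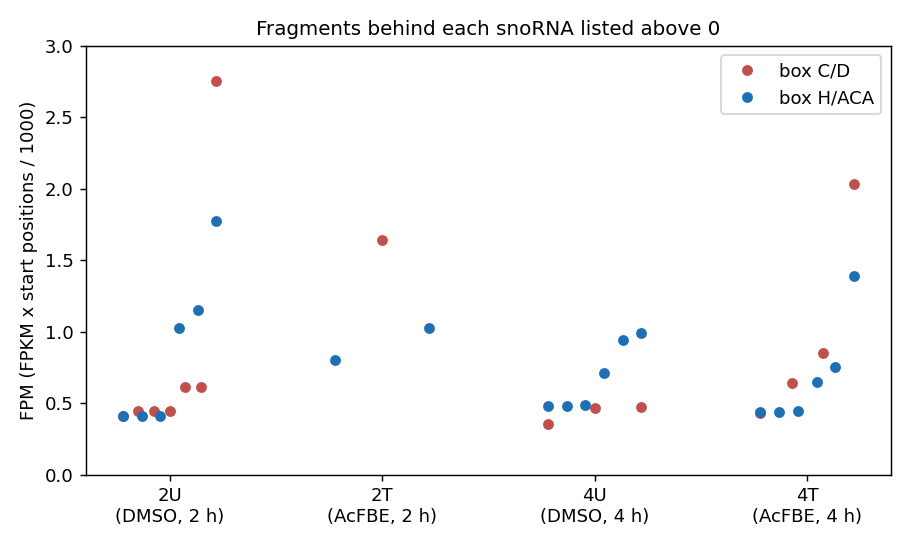
FPM (FPKM times the number of start positions of a 35-base read, divided by 1000) of each detected snoRNA in each mRNA library, in red for box C/D and in blue for box H/ACA. Most points lie in a low band near the smallest snoRNA value of their library, and SNORD86 lies highest, at 2.76 in 2U and 2.03 in 4T.

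On this scale most detected snoRNAs lay near the lowest snoRNA value of their library. At 2 h this lowest value was 0.410 FPM in the control and 0.801 FPM in the treated library. At 4 h it was 0.353 and 0.428 FPM. It comes from the detected snoRNAs alone, so it is no detection limit of the library, and the counts below include the lowest member. Below 1.5 times the lowest value lay 7 of the 13 members of 2U, 2 of the 3 of 2T, 6 of the 9 of 4U and 5 of the 10 of 4T. Within 3 times it lay 11, 3, 9 and 8 members. SNORA10, at 1.77, and SNORD86, at 2.76, were the 2 members above that in 2U, and SNORA70, at 1.39, and SNORD86, at 2.03, in 4T. All detected snoRNAs together made up 10.9 FPM in the control and 3.47 FPM in the treated library at 2 h, and 5.38 and 8.07 FPM at 4 h. The number of reads behind each value is not in the table, and no counting interval was calculated. The order of the classes depended on the scale in the control libraries. In 2U the median of detected members was 10.8 FPKM for box C/D and 7.30 FPKM for box H/ACA, but 0.444 FPM for box C/D and 0.718 FPM for box H/ACA. In 4U the medians were 9.54 and 6.09 FPKM, but 0.467 and 0.597 FPM, in the same order of classes. In the treated libraries box C/D was higher on both scales, with 16.7 against 5.56 FPKM and 0.745 against 0.547 FPM in 4T, and with the single member SNORD104 in 2T.

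The first comparison asked how snoRNA values differed after 2 h of AcFBE. Of the 13 members of 2U, 10 (76.9%) were at 0 in 2T, against 21.0% of all rows above 0 in 2U. They were 6 of 7 box C/D and 4 of 6 box H/ACA members. No member at 0 in 2U was above 0 in 2T, where 6 of 11623 rows (0.0516%) were. The same share of all rows at 4 h was 8.79%, so hardly any row was gained at 2 h. In the 3 members above 0 in both, the 2T to 2U ratio was 0.578 for SNORA10 (log2 -0.79), 0.693 for SNORA70 (log2 -0.53) and 3.69 for SNORD104 (log2 1.89). SNORD104 was the 1 member that was at least 2-fold higher, and 0 were at least 2-fold lower. Over all rows above 0 in both libraries, 23.4% were at least 2-fold higher and 18.4% at least 2-fold lower, and the median log2 ratio was 0.065.

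After 4 h the numbers of detected members were alike, but the members were largely others. Of the 9 members of 4U, 6 (66.7%) were at 0 in 4T, against 9.41% of all rows above 0 in 4U. In turn 7 members at 0 in 4U were above 0 in 4T, and over all rows this share was 8.79%. The 3 box C/D members of 4U and the 4 of 4T had 0 members in common, and 3 of 6 box H/ACA members were shared. The 4T to 4U ratio was 1.06 for SNORA10 (log2 0.088), 0.917 for SNORA6 (log2 -0.13) and 1.40 for SNORA70 (log2 0.49). None of the 3 differed by 2-fold, where 12.6% of all rows were at least 2-fold higher and 20.9% at least 2-fold lower. SNORA10 and SNORA70 were both lower in the treated library at 2 h and higher at 4 h, and the difference between the times was not tested.

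The 2 DMSO libraries show differences that arise without AcFBE, although they also differ in time. Their values differ in form as well, with 2656 rows between 0 and 0.2 FPKM in 2U and 0 in 4U. What this adds to the differences between the controls was not tested. Of the 13 members of 2U, 10 (76.9%) were at 0 in 4U, the same number as in 2T, against 15.6% of all rows. In turn 6 members at 0 in 2U were above 0 in 4U, and over all rows this share was 4.55%. Both of these numbers rest on the same library 2U. The 4U to 2U ratio was 0.401 for SNORA10 (log2 -1.32), 2.30 for SNORA64 (log2 1.20) and 0.856 for SNORA70 (log2 -0.22). One member (1 of 3) was thus at least 2-fold higher and 1 at least 2-fold lower, where 34.5% and 7.27% of all rows were. For SNORA10 the difference between the 2 controls, a factor of 0.401, was larger than either difference between treated and control libraries. The 3 members of 2T were all among the 10 of 4T (of all rows above 0 in 2T, 95% were above 0 in 4T), and the 13 members of 2U and the 10 of 4T shared 7. The turnover of members between libraries was therefore as large between the controls as between treated and control libraries, and an effect of AcFBE on snoRNA levels cannot be told apart from differences between single libraries.

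SnoRNAs and host genes were then set side by side. RefSeq places 333 members within the span of 1 other gene, 29 within 2 or 3 and 2 within none. Strand was not considered in this step, so a host may lie on the other strand. A row of the table was found for the single host of 251 members, 17 of them detected. The hosts of these 17 had a median of 3149 FPKM (mean of 4 libraries, 2.03 to 26601 FPKM), and those of the 234 members at 0 a median of 5.38 FPKM (0 to 26601 FPKM). When members with several hosts were added with the higher host, the median for detected members was 1042 FPKM. Detection was more frequent the higher the host. It was 0 of 42 snoRNAs whose host was at 0, 1 of 85 (1.18%) below 10 FPKM, 2 of 31 (6.45%) from 10 to 100 FPKM, 5 of 52 (9.62%) from 100 to 1000 FPKM and 9 of 41 (22%) at 1000 FPKM and over. SnoRNAs of 1 host share that host's value, so these members are not independent of each other. The 42 with a host at 0 came from 5 host genes, and most were the SNORD113 (7) and SNORD114 (31) members of 1 host, MEG8.

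**Figure D4:**
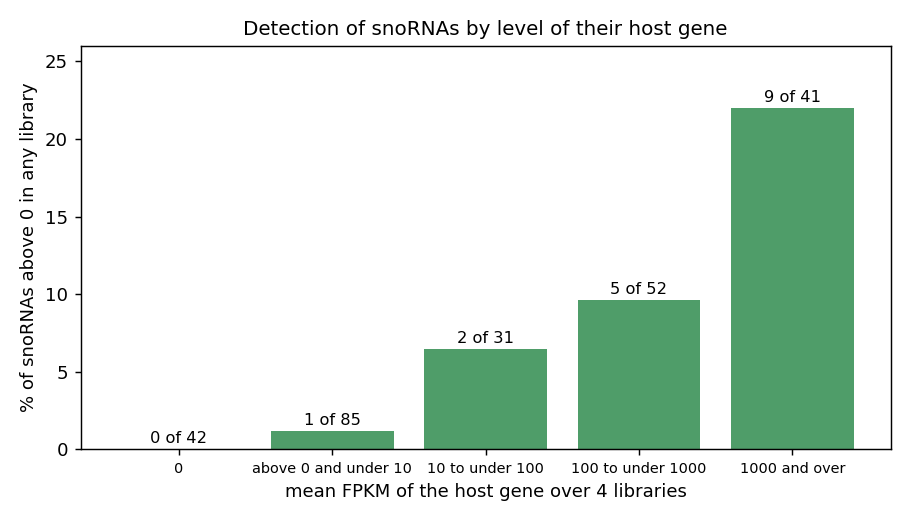
Percent of snoRNAs above 0 in any mRNA library (y axis) by the mean FPKM of their host gene over the 4 libraries (x axis), with the number detected of the number in the bin above each bar. The percent climbs from 0 of 42 for hosts at 0 to 9 of 41 (22%) for hosts at 1000 FPKM and over.

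A high host level did not bring detection of all its snoRNAs. Both snoRNAs of RPS2 (SNORA10 and SNORA64) and 2 of 3 of RPL3 (SNORD43 and SNORD83B) were detected, each of the latter in a different library. Of GAS5, a non-coding host gene, 2 of 10 were detected (SNORD47 and SNORD80), and of TAF1D 1 of 8 (SNORA18). NOP56 had 1 of 5, SNORD86. In 26 of 28 values the host could be compared because it was above 0, and it was the higher one in 24, by a median factor of 173 over all 26. The exceptions were both SNORA18, at 10.5 FPKM in 2U and 4.49 FPKM in 4T beside 1.22 and 0.859 FPKM of TAF1D. SNORD86 came next, with NOP56 only 2.21 times higher in 2U and 4.76 times higher in 4T. RPL10, the host of SNORA70, was listed at 0 in both libraries of 2 h but at 1484 FPKM in 4U and 1575 FPKM in 4T, so its 0 may be a failed estimate. NCRNA00188 (now SNHG29), the host of SNORD49A, SNORD49B and SNORD65, was likewise listed at 0 at 2 h, beside 712 FPKM in 4U and 1381 FPKM in 4T. The mean levels used for these 2 hosts, 765 and 523 FPKM, include those zeros.

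Reads of a snoRNA can also come from host transcripts that hold its sequence. In the GENCODE annotation on GRCh37, 287 members could be placed within their host, and 136 of them (47.4%) overlapped an exon of at least 1 annotated host transcript, 61 of them one annotated with a retained intron. Of the 14 detected members so placed, 12 (85.7%) overlapped such an exon, including all 6 box H/ACA members, and 9 of the 12 lay in a transcript with a retained intron. SNORA10, SNORA64, SNORA70, SNORD86 and SNORD96A were among them, while SNORD104 and SNORD46 lay in introns only. Among the 273 placed members at 0, 124 (45.4%) overlapped an exon. With transcripts that share these bases, the snoRNA and its host transcript cannot be told apart in this table, and the values of the 12 members are uncertain to that extent.

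The snoRNAs of pre-rRNA cleavage were taken from a list of 15 symbols. Only SNORD22 was found as a row, and it was at 0 in all 4 libraries; the others, such as SNORD3A (U3) and SNORD118 (U8), were not analysed here.

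The genes for the proteins of the snoRNA particles were all above 0 in the 4 libraries. For box C/D, FBL (fibrillarin, the methyltransferase) had 1007, 1158, 1264 and 1148 FPKM in 2U, 2T, 4U and 4T, and NHP2L1 (SNU13, which binds the C and D boxes) 716, 526, 572 and 586 FPKM. NOP56 had 117, 186, 92.9 and 186 FPKM, and NOP58 0.690, 4.2, 1.51 and 5.92 FPKM. FBL and NHP2L1 thus stayed within a narrow range, whereas NOP58 was higher in each treated library than in its control, by 6.08 times at 2 h and 3.91 times at 4 h, and NOP56 by 1.59 and 2.00 times. The low level of NOP58 makes its ratios depend on small values.

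**Figure D5:**
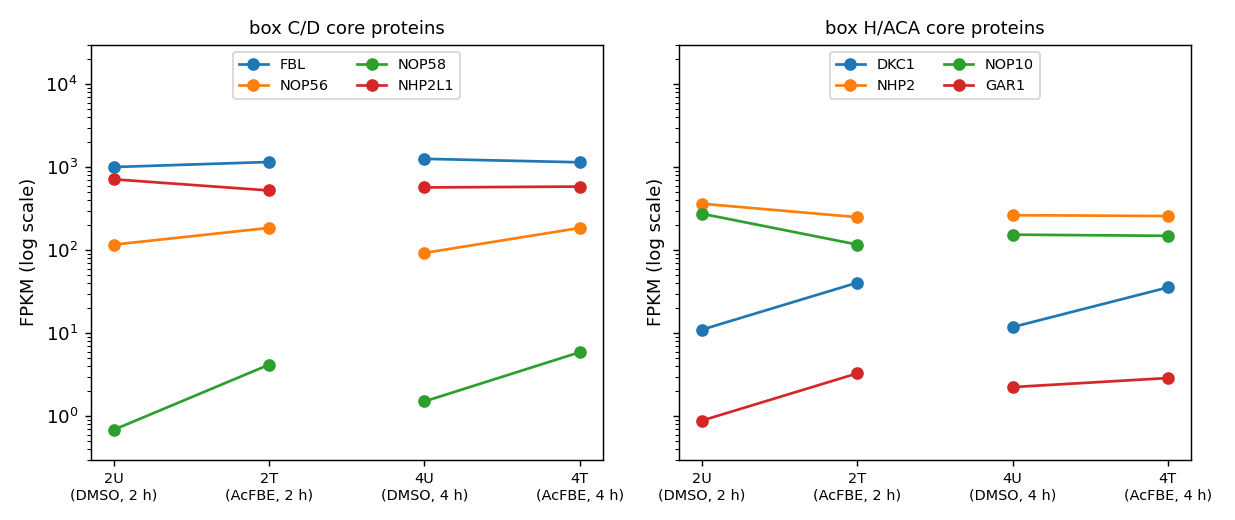
FPKM on a log axis of the 4 box C/D core protein genes on the left and the 4 box H/ACA core protein genes on the right, in each mRNA library, with lines joining control and treated library of the same time. NOP58 (0.690 to 4.2 FPKM at 2 h) and DKC1 (11.1 to 40.7 FPKM at 2 h) climb at both times and GAR1 (0.889 to 3.29 FPKM) at 2 h, and FBL and NHP2L1 are nearly level.

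For box H/ACA, DKC1 (dyskerin, the pseudouridine synthase) had 11.1, 40.7, 11.9 and 35.7 FPKM in 2U, 2T, 4U and 4T. It was 3.67 times higher in 2T than in 2U and 3.00 times higher in 4T than in 4U, while the 4U to 2U ratio of the controls was 1.07. That ratio of the controls was 2.19 for NOP58, 2.53 for GAR1 and 0.560 for NOP10. GAR1, a low gene, had 0.889, 3.29, 2.25 and 2.89 FPKM, NHP2 had 364, 251, 265 and 259 FPKM, and NOP10 had 276, 117, 154 and 149 FPKM. NOP10 was lower in 2T than in 2U, by a ratio of 0.425, and level at 4 h. At 2 h, 3 of the 8 core protein genes were at least 2-fold higher (NOP58, DKC1 and GAR1) and NOP10 was at least 2-fold lower. At 4 h, NOP58 and DKC1 were at least 2-fold higher. Of all rows, 23.4% were at least 2-fold higher at 2 h and 12.6% at 4 h.

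Of 10 assembly factors, all were above 0 in at least 1 library. At 2 h, 1 of the 8 above 0 in both libraries was at least 2-fold higher, ZNHIT3 (12 FPKM in 2U and 29.8 FPKM in 2T), and SHQ1, the dyskerin chaperone, was at least 2-fold lower at 1.74 and 0.656 FPKM. At 4 h, RUVBL2, a helicase of the assembly complex, was the 1 factor at least 2-fold lower, at 590 FPKM in 4U and 283 FPKM in 4T. Of all rows, 18.4% were at least 2-fold lower at 2 h and 20.9% at 4 h, so these counts lie near those of all rows. Of 14 non-coding host genes listed, 12 had a row and 11 were above 0. GAS5 had 224, 129, 174 and 182 FPKM. SNHG1, the host of several box C/D snoRNAs, was lower in both treated libraries, with 160 and 65.3 FPKM in 2U and 2T and 145 and 57.1 FPKM in 4U and 4T. SNHG7 was higher in both, with 16 and 32.6 FPKM at 2 h and 9.30 and 28.2 FPKM at 4 h. SNHG12, the host of SNORA61, had 8.94, 3.46, 40.6 and 5.48 FPKM, and SNORA61 itself was above 0 only in 4U, where SNHG12 was highest.

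The small RNA libraries gave a second readout of a snoRNA locus. In RefSeq, 5 miRNA hairpins overlap snoRNA genes that are members, and of their miRNAs only hsa-miR-664 had a row in the miRNA tables. Its hairpin MIR664A shares 74 of its 82 bases with SNORA36B, which was at 0 in all 4 mRNA libraries. The name of the row gives no arm, so both mature RNAs of the hairpin are shown from RefSeq (GRCh38.p14), with the seed (bases 2 to 8) in capitals.
hsa-miR-664a-3p: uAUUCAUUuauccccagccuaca
hsa-miR-664a-5p: aCUGGCUAgggaaaaugauuggau

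In the first sequencing batch (SOLiD 3), miR-664 had 123, 20, 120 and 53 reads in 2U, 2T, 4U and 4T, which were 17.2, 2.60, 10.2 and 5.78 RPM (reads per 1000000 quality reads). In the second batch (5500xl) it had 25, 4, 42 and 5 reads, or 1.19, 0.235, 2.08 and 0.354 RPM. The treated library was lower in 4 of 4 pairs, with a mean log2 difference of -2.11 ± 0.88 (SD, n = 4). Scaled to the miRNA reads of each library instead, the mean was -0.61 with 3 of 4 pairs lower, and the 4 h pair of the first batch turned to 0.63. The exact two-sided sign-flip test over the 4 pairs gave p = 0.125, the smallest value that 4 pairs can give. Of the 167 miRNAs above 0 in all 8 libraries, 114 (68.3%) were lower in all 4 pairs as well, and their median of mean log2 differences was -1.34, so this direction was not particular to miR-664. In the treated libraries of the second batch the values rest on 4 and 5 reads.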

How the data were processed

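Members and gene lists were chosen with earlier results of these data known. The authors deposited FPKM per gene for 4 mRNA libraries (SOLiD 3, poly(A) selection); their processing notes name TopHat, Cufflinks and hg19/GRCh37 without versions, and their methods give a quality value of at least 20 per read and mapping with Bowtie and Cufflinks with up to 2 mismatches. The length correction is not given in the sources used here. The authors also deposited read counts per known miRNA for SK-HEP-1 in 2 batches (notes: Bowtie 0.12.7, cutadapt). The mouse cell line BNL CL.2 was not used here. Reads per gene are not in the FPKM table, so no counting interval was calculated and, with 1 library per condition, no test was made. Sums of FPKM over all rows were 786224 to 845681. The lowest FPKM above 0 was 0.2 in both 4 h libraries, whereas 2656 and 1173 values in 2U and 2T lay under 0.2; no snoRNA did.

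Ratios used no pseudocount and rows above 0 in both libraries; 2-fold was the size used for counts. FPM, for reads of 35 bases (the length the methods give for SOLiD sequences, in a passage that may concern the small RNA libraries only), was introduced after the values were seen. Lengths and hosts came from RefSeq (GRCh38.p14, names and neighbours only): all 364 members matched, 11 by a synonym. Positions came from GENCODE on GRCh37 (length within 15 nt, inside the host), for 287 members. Sequences were read for 200 box C/D and 85 box H/ACA members of these. Those of SNORA72 and SNORD54, on chromosome 8, were not read. Named were the 10 members with the highest mean, those in all 4 libraries, those with the 5 highest and lowest ratios at each time, and the lists of cleavage snoRNAs, core proteins, assembly factors, hosts and other small RNAs; the other detected members were named after their values were seen. Counts of miR-664 were scaled to RPM by each library's quality reads, as listed in the study's supplement; the batches, SOLiD 3 and 5500xl in the labels, came from separate cultures per the methods, and the pairs of 1 batch are not independent cultures of each other as far as the sources say. Alternatives were another detection limit, pseudocount, scaling, control, host choice and pairing. Python 3 with pandas, numpy and scipy was used, and the ratio step was tested on simulated data.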

Additional observations from a re-analysis of the deposited data

Results flagged for a closer look

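Some differences between treated and control libraries had opposite signs at 2 and 4 h. None of these was tested, because each condition had 1 mRNA library. The number of snoRNAs above 0 was lower by 10 in the treated library at 2 h (a change of -10, from 13 to 3) and higher by 1 at 4 h (from 9 to 10). Over all rows the change also had opposite signs, from 10691 to 8454 at 2 h and from 9550 to 9773 at 4 h. The paper counts more genes in 2T than in 2U, the reverse of the change at 2 h here, so the 2 h counts are uncertain. SNORA10 had a log2 ratio of -0.79 at 2 h and 0.088 at 4 h. SNORA70 had a log2 ratio of -0.53 at 2 h and 0.49 at 4 h.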

How the results depend on the processing

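Detection limits of 0.2 or 1 FPKM changed no count or share of detected snoRNAs, because the lowest snoRNA value was 3.57 FPKM. Leaving out SNORD113 to SNORD116 could change no number detected, since 0 of these rows were above 0. The same step named SNORD3, for which no row was found. Rescaling to TPM moved the median from 10.5 to 12.8 in 2U and from 10.4 to 13.2 in 2T. At 4 h it moved from 7.40 to 8.75 in 4U and from 9.60 to 11.6 in 4T. SNORD86 is the member with the highest mean. Leaving it out lowered the sum from 170 to 117 FPKM in 2U and from 125 to 85.8 FPKM in 4T. It could not change the sums of 2T and 4U, where SNORD86 was at 0. Taking the higher of several hosts lowered the median host level of detected snoRNAs from 3149 to 1042 FPKM. The median log2 ratio of 2T to 2U, -0.53 over 3 members, became 0.11 with 4U as the control, and with pseudocounts of 1 and 0.1 over the members above 0 in either library it was -2.95 and -6.09, because members at 0 in 2T then enter. The same step moved the median of 4U to 2U from -0.22 to -2.19 with a pseudocount of 1. The median of 4T to 4U, 0.088, kept its sign under each alternative run.

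Each mRNA condition had 1 library, so a comparison at 1 time has no pairs, and a fit over both times with time as the block was not run. For miR-664 the pairing within batch and time was the design. With no replicate block the mean log2 difference was the same, -2.11, with an exact two-sided permutation p of 0.20 over 4 treated and 4 untreated libraries. Leaving out either batch gave -2.44 to -1.77, and scaling to miRNA reads gave -0.61, with 3 of 4 pairs lower and an exact p of 0.25. These 2 alternatives, the left-out batch and the fit with no block, were chosen after seeing the data. What limits these values is the unknown number of reads behind each snoRNA.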
